A study of Mus musculus with 16 samples.

Results

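Nell2, Akap3 and Galnt15 are 3 genes that are not odorant receptors and whose signal was higher in the GFP+ than in the GFP- cells of a sort for recently active olfactory neurons. Each is measured by 1 probe set (TC1500002118.mm.2 for Nell2, TC0600001472.mm.2 for Akap3 and TC1400000336.mm.2 for Galnt15), so the account covers 3 of the 22206 non-control probe sets of the array. They were picked from earlier results of these arrays because of their GFP+ minus GFP- difference, Nell2 and Akap3 among the most enriched genes of the vehicle pools and Galnt15 among those of the odor pools. That difference is therefore given for them as a description, with no test.

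The groups, 4 arrays each, were GFP+ cells after odor, GFP- cells after odor, GFP+ cells after vehicle and GFP- cells after vehicle, all from olfactory mucosa of S100a5-tauGFP mice. Males and females aged 7 to 12 weeks were used, 24 in all, and they formed 8 pools of 3, and each pool gave 1 GFP+ and 1 GFP- array, so a value is that of a pool and not of an animal. All mice sat in clean air chambers for 40 h. After 26 h, 4 pools received 10 s pulses of 1-pentanethiol every 20 min and the other 4 pools, on the same schedule, filtered air as vehicle. The odor is named as in the title and sample labels, while the design text of the series names bourgeonal. The reporter follows S100a5, a gene whose transcript rises with the activity of a sensory neuron. GFP+ therefore marks cells by reporter level and not by a single receptor, and GFP- is a mixture of other neurons and other cells.

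The 3 genes belong to unrelated families. Nell2 encodes a secreted glycoprotein with EGF-like repeats. In mouse it is a ligand of the axon guidance receptor Robo3 on commissural axons and a signal that passes from the testis to the kinase Ros1 in the epididymis. Akap3 encodes an A-kinase anchoring protein, known from the fibrous sheath of the sperm tail, where it tethers the cyclic AMP-dependent protein kinase. Cyclic AMP is also the second messenger of odor transduction. Galnt15 encodes a member of the family of Golgi enzymes that start mucin-type O-glycosylation by attaching N-acetylgalactosamine to serine or threonine.

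Sequences near annotated starts are shown because a sort by an activity-dependent reporter raises the question of which short DNA elements lie there. RefSeq (GRCm38.p6) promoter windows were at hand for Akap3 and Galnt15. They were searched on both strands for the cyclic AMP response element TGACGTCA, the variant TGATGTCA, the palindrome bound by EBF factors, the homeodomain core TAATTA and the AP-1 site TGANTCA. The variant was added after the Akap3 sequence had been seen. The 250 bases before the annotated start of Akap3 (chr6:126852848-126853097, plus strand) are given 5′ to 3′ with the match to the variant in capitals, and for Galnt15 a stretch of 30 bases (chr14:32029034-32029063, plus strand) is given with the AP-1 letters in capitals.
Akap3: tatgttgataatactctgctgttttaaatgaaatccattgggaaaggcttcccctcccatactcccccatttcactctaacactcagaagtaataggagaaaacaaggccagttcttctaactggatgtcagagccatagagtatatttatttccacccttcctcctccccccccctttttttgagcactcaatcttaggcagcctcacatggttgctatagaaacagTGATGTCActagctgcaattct
Galnt15: ttgctctgaccTGACTCAaggcatcccaag

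In Akap3 the marked letters begin 22 bases before the start, and a second match to TGATGTCA, not printed, begins 1 base before it. Of 32851 mouse windows of 300 bases, 3.62% held this variant and 0.228% held it at least 2 times. Because the variant was added after this sequence had been seen, these shares do not measure how unusual its matches are. In Galnt15 the AP-1 letters begin 58 bases before the start used for its window (chr14:32029103), and 7.81% of windows held such a match. The RefSeq gene is annotated from chr14:32028782, so these letters lie within its span and not upstream of it. The unchanged element TGACGTCA was in 1.79% of windows, the EBF palindrome in 0.904% and TAATTA in 5.29%, and none of these was found in either window. A match is a description of the letters and not of a binding site.

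Signals are log2 values of probe sets, and levels are compared only within a gene. As a check of the sort, after odor S100a5 averaged 17.10 ± 0.02 in GFP+ cells, against 16.11 ± 0.25 in GFP- cells, and after vehicle 16.67 ± 0.12 in GFP+ cells, against 15.80 ± 0.07 in GFP- cells (SD, n = 4 each). Of 12 markers of mature olfactory neurons, 2 were higher in GFP+ cells of the odor pools and 1 in those of the vehicle pools (limma, adjusted p under 0.05), where 11.3% and 9.34% of all probe sets were. The list medians were 0.15 and 0.16, beside 0.13 and 0.11 for all probe sets. All 10 neutrophil markers were lower in GFP+ cells in each sort, and their summed linear signal ran from 1307 to 5064 on GFP+ arrays, against 395264 to 770317 on GFP- arrays. Of 10 markers of immature neurons, 6 were lower in the odor pools and 7 in the vehicle pools. Of all probe sets, 11.9% and 11.8% were lower in these sorts. Of 7 measured markers of Bowman's gland and respiratory epithelium, 0 were called in either direction in either sort. The other marker lists, of sustentacular, basal, tuft-like, macrophage and B cells, held lower genes and 0 higher ones. The fractions thus differed in the signal of several marker lists. In such bulk samples fewer cells of a type and less RNA per cell cannot be told apart. The GFP+ array of vehicle replicate 2 stood apart, with a negative control median of 7.28, against 6.22 to 6.48 on the other GFP+ arrays and 5.99 to 6.12 on the GFP- arrays.

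Nell2 was higher in GFP+ than in GFP- cells of every pool. In the odor pools its signal was 7.94, 8.06, 8.02 and 7.08 in GFP+ cells of replicates 1 to 4, against 6.29, 6.04, 6.42 and 5.43 in GFP- cells. In the vehicle pools it was 8.25, 7.60, 8.02 and 7.33 in GFP+ cells, against 6.10, 6.50, 6.90 and 6.12 in GFP- cells. The ranges of GFP+ and GFP- arrays did not overlap. Odor replicate 4 was the lowest odor array in both fractions. Pool by pool the difference was 1.65, 2.02, 1.60 and 1.64 after odor, against 2.15, 1.10, 1.12 and 1.21 after vehicle, and it averaged 1.73 ± 0.20 and 1.39 ± 0.51 (SD, n = 4 pools each), or 3.31-fold and 2.63-fold. Vehicle replicate 1 alone carried a vehicle difference above 2, because the GFP+ signal was the highest and the GFP- signal the lowest of the vehicle arrays.

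Akap3, too, was higher in GFP+ cells of each of the 8 pools, although by little in one of them. Its signal in the odor pools was 7.53, 7.69, 6.84 and 7.70 in GFP+ cells, against 6.30, 6.76, 6.70 and 6.09 in GFP- cells. In the vehicle pools GFP+ cells had 7.83, 7.06, 7.75 and 7.81 and GFP- cells 6.34, 5.97, 6.07 and 6.10. GFP+ and GFP- arrays again did not overlap, but the GFP+ array of odor replicate 3 lay just above the GFP- array of odor replicate 2. The pool differences were 1.23, 0.93, 0.13 and 1.61 after odor, against 1.48, 1.09, 1.68 and 1.71 after vehicle. Their means were 0.98 ± 0.63 and 1.49 ± 0.29 (SD, n = 4 pools each), or 1.97-fold and 2.81-fold, and without odor replicate 3 the odor mean was 1.26.

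Galnt15 had the highest GFP+ signals after odor. Its values there were 8.59, 8.31, 8.08 and 7.75, against 6.63, 6.33, 6.77 and 5.82 in GFP- cells of the same pools. In the vehicle pools GFP+ cells had 7.79, 6.69, 7.71 and 7.32 and GFP- cells 6.59, 6.21, 6.51 and 6.16. Within each stimulus the fractions did not overlap, while the GFP+ array of vehicle replicate 2 lay below the highest GFP- array of the odor pools. The pool differences were 1.96, 1.97, 1.31 and 1.92 after odor, against 1.20, 0.47, 1.19 and 1.17 after vehicle, with means of 1.79 ± 0.32 and 1.01 ± 0.36 (SD, n = 4 pools each), or 3.46-fold and 2.01-fold. The lowest, 0.47, came from the pool whose GFP+ array stood apart, and without that array the vehicle difference was 1.24.

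**Figure D1:**
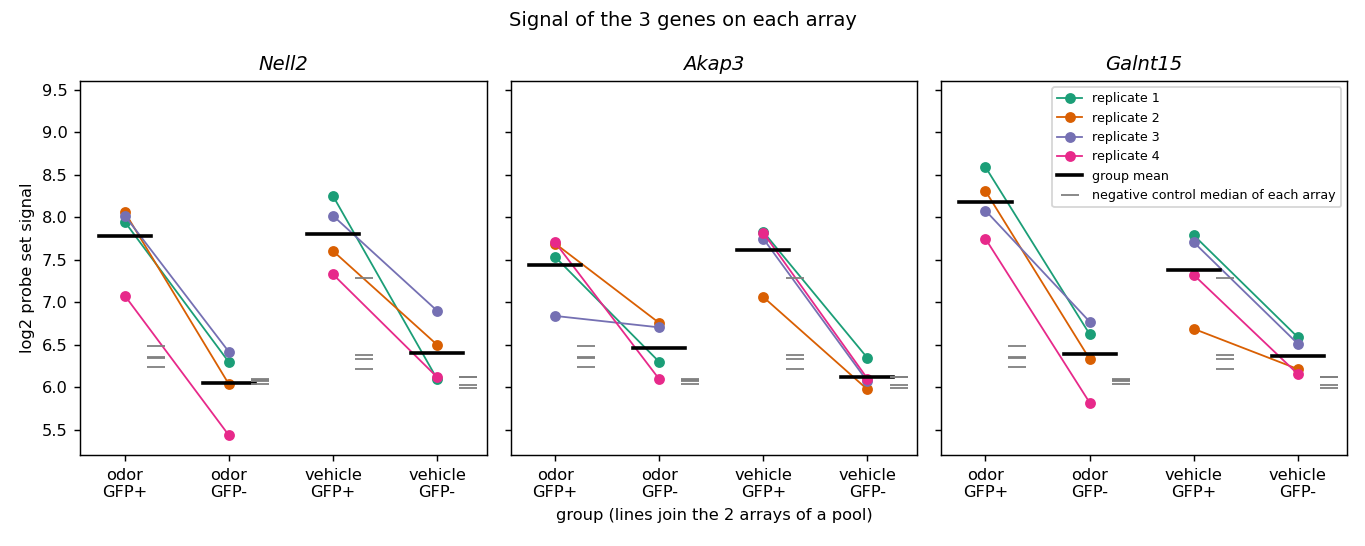
Log2 probe set signal (y axis) of Nell2, Akap3 and Galnt15 on each array, by group (x axis), with lines joining the GFP+ and GFP- arrays of a pool, black bars for group means and grey dashes for the negative control median of each array. Every line falls from GFP+ to GFP-, the flattest being Akap3 in odor replicate 3 (6.84 and 6.70), and the GFP- values lie about the negative control medians.

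Non-overlap of this kind, with GFP+ above GFP-, was seen for 14.4% of all probe sets in the odor pools and 11.7% in the vehicle pools, and 12.3% were higher in GFP+ cells of all 8 pools. Since the sort difference chose the 3 genes, nothing is read from their place in these shares. By size of difference Galnt15, Nell2 and Akap3 ranked 193, 205 and 431 from the top of 22206 probe sets in the odor pools, and 452, 281 and 259 in the vehicle pools. The plot of pool differences sets them beside S100a5, whose difference averaged 0.99 ± 0.23 after odor and 0.87 ± 0.14 after vehicle, and Omp, a gene of mature olfactory sensory neurons, with 0.03 ± 0.02 and 0.05 ± 0.13 (SD, n = 4 pools each). Omp lies near the top of the measured range, at a mean of 18.27 to 18.35 in the 4 groups. S100a5 was also bright, at 15.80 to 17.10, while the 3 genes lay near the negative controls. It cannot be told from these sizes whether a gene was more enriched than S100a5.

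**Figure D2:**
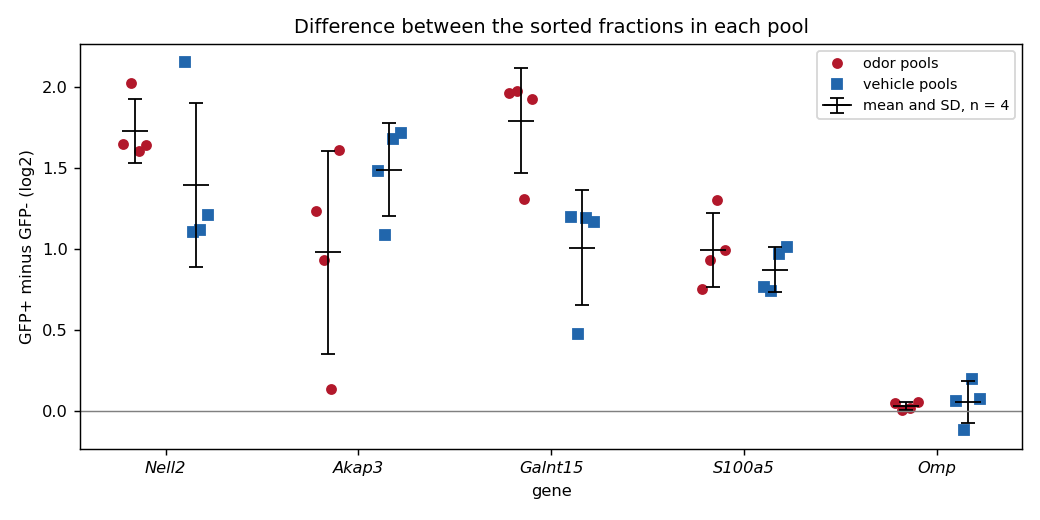
GFP+ minus GFP- difference on the log2 scale (y axis) for each pool, with odor pools as red circles left of vehicle pools as blue squares, and the mean and SD of 4 pools in black, for 5 genes (x axis). The Galnt15 points of the odor pools (1.31 to 1.97) lie above those of the vehicle pools (0.47 to 1.20), while the points of Nell2 and Akap3 overlap between stimuli.

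The levels were low. In GFP- cells, between 36.1% and 66.5% of the 5222 negative control entries of an array lay below the 3 genes, so there the probe sets were at about the middle of nonspecific signal. In GFP+ cells of the odor pools the share was 64.8% to 79.9% for Nell2, 57.5% to 74.9% for Akap3 and 75.6% to 86.0% for Galnt15. In GFP+ cells of the vehicle pools it was 55.8% to 84.4%, 46.1% to 79.7% and 39.3% to 79.2% in the same order. The lowest share of each gene there came from the array of vehicle replicate 2. With each GFP- value raised to the negative control median of its array where it lay below, the differences were 1.57, 0.98 and 1.73 in the odor pools and 1.39, 1.46 and 1.01 in the vehicle pools for Nell2, Akap3 and Galnt15. Negative controls were themselves higher on GFP+ arrays. With their medians set equal, an alternative added after the data were seen, the differences fell to 1.45, 0.70 and 1.51 in the odor pools and 0.90, 1.00 and 0.52 in the vehicle pools. What part nonspecific signal has in the differences was not tested further.

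Taken as an order of the 4 groups, Nell2 stood at 7.77 ± 0.47 in GFP+ cells after odor and 7.80 ± 0.41 in GFP+ cells after vehicle, and at 6.05 ± 0.44 and 6.40 ± 0.38 in the GFP- cells of the same stimuli (SD, n = 4 each). Akap3 stood at 7.44 ± 0.41 and 7.61 ± 0.37 in GFP+ and at 6.46 ± 0.32 and 6.12 ± 0.16 in GFP- cells. For both, the stimuli were neighbours in the order and overlapped within a fraction. Galnt15 differed in that its GFP+ levels were spaced, with 8.18 ± 0.36 after odor and 7.38 ± 0.50 after vehicle, above 6.39 ± 0.42 and 6.37 ± 0.21 in GFP- cells. Even so, its lowest GFP+ array after odor (7.75) lay under its highest after vehicle (7.79).

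The response to the odor was compared over all probe sets. In GFP+ or GFP- cells alone it uses arrays of the sort differences that chose the genes, for Galnt15 those of the odor pools, so the tests within a fraction are not independent of that choice. None of the 3 genes passed the threshold of an adjusted p under 0.05 in GFP+ cells, where 0.0766% of all probe sets did and 7.15% had an unadjusted p under 0.05. Galnt15 changed most of the 3, by 0.80 ± 0.25 (SE, 95% interval 0.28 to 1.33, 1.75-fold), with an adjusted p = 0.496 by limma. A two-sided exact permutation test over the 8 pools gave p = 0.0571, where 0.0286 is the smallest p it can give. Counted from the most raised of 22206 probe sets, the change of Galnt15 ranked 60, and it includes the odor GFP+ arrays that chose the gene. Nell2 differed by -0.03 ± 0.27 (interval -0.59 to 0.54, adjusted p = 0.995 by limma) and Akap3 by -0.17 ± 0.22 (interval -0.63 to 0.28, adjusted p = 0.908 by limma). With vehicle replicate 2 left out of the GFP+ arrays, the change of Galnt15 was 0.57 (adjusted p = 0.552 by limma) and that of Akap3 was -0.36 (adjusted p = 0.675 by limma).

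In GFP- cells, where 0.0495% of probe sets passed and 2.61% had an unadjusted p under 0.05, none of the 3 did. The changes were -0.36 ± 0.27 for Nell2, 0.34 ± 0.22 for Akap3 and 0.02 ± 0.25 for Galnt15, each with an adjusted p = 1 by limma to 3 digits. The mean of the odor changes in both fractions is orthogonal to the sort comparisons in the fit, and 0.0405% of probe sets passed in it, with 4.49% at an unadjusted p under 0.05. There Nell2 differed by -0.19 ± 0.19, Akap3 by 0.08 ± 0.15 and Galnt15 by 0.41 ± 0.18 (interval 0.04 to 0.78), each with an adjusted p = 0.996 by limma.

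**Figure D3:**
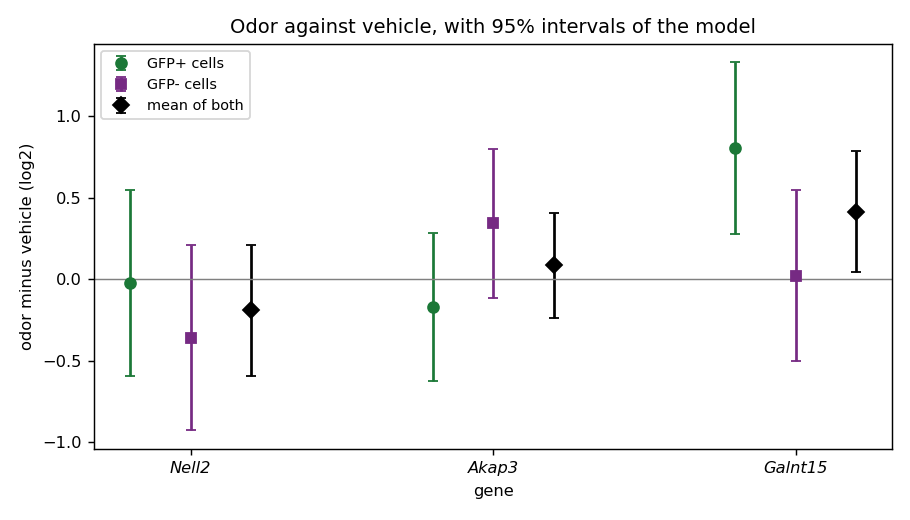
Odor minus vehicle on the log2 scale (y axis) for the 3 genes (x axis) in GFP+ cells, in GFP- cells and as the mean of both fractions, with bars for 95% intervals of the model. The GFP+ interval of Galnt15 (0.28 to 1.33) and that of its mean (0.04 to 0.78) lie above 0, without passing the adjustment over 22206 probe sets, and every interval of Nell2 and Akap3 includes 0.

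The assay asks which transcripts gain enrichment in GFP+ cells with an odor. The GFP+ minus GFP- difference was larger after odor than after vehicle by 0.78 ± 0.35 for Galnt15 and by 0.33 ± 0.38 for Nell2, and smaller for Akap3, by -0.51 ± 0.30. None passed, with an adjusted p = 0.999 by limma for each, where 0.063% of probe sets did and 4.65% had an unadjusted p under 0.05. The 95% intervals ran from 0.04 to 1.53, from -0.47 to 1.14 and from -1.16 to 0.13. Galnt15 was picked on its odor difference and the other 2 on their vehicle difference, which is 1 term of this measure, so these directions are no evidence independent of the choice.

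Around Nell2, the list of its relatives, receptors and guidance partners held genes that passed in each direction. Comparing GFP+ with GFP- cells, 2 of 14 genes were higher and 2 lower in the odor pools, where 11.3% of all probe sets were higher and 11.9% lower. After vehicle, 2 were higher and 1 lower, beside 9.34% and 11.8% of probe sets. The list medians were 0.08 and 0.12, against 0.13 and 0.11 for all probe sets. The highest was Adam28, a membrane-anchored disintegrin metalloprotease, with 14.67 in GFP+ and 13.55 in GFP- cells after odor and 14.52 and 13.65 after vehicle. It was higher by 1.12 ± 0.16 (adjusted p = 4.33e-05 by limma) and 0.87 ± 0.16 (adjusted p = 0.000628 by limma). With negative control medians set equal its vehicle difference was 0.38 (adjusted p = 0.326 by limma). Slit1, a secreted ligand of Robo receptors, was higher by 0.51 ± 0.17 and 0.62 ± 0.17 (adjusted p = 0.0342 and 0.0116 by limma), but neither call held with receptor or negative control medians set equal, and the odor call was also lost without odor replicate 2, 3 or 4 or vehicle replicate 3 and the vehicle call without vehicle replicate 2.

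Prkcb, the protein kinase C beta gene, whose product binds the EGF-like repeats of NELL2, was the lowest of the list. It averaged 6.39 in GFP+ and 10.33 in GFP- cells after odor and 6.60 and 10.43 after vehicle, lower by -3.93 ± 0.32 and -3.82 ± 0.32 (adjusted p = 6.73e-08 and 9.71e-08 by limma). Its GFP+ level lay about the negative control medians, which limits what these sizes show. Neutrophil and B cell markers moved the same way in these fractions, and their part in it was not tested. The Robo3 probe set, with group means of 4.37 to 4.47, and those of Ros1 (4.55 to 5.15) and the paralog Nell1 (3.43 to 3.68) lay under the negative control medians and did not pass in either sort. Robo2, a receptor used by olfactory axons, was lower by -0.62 ± 0.18 in the odor pools (adjusted p = 0.0182 by limma) and differed by -0.19 ± 0.18 in the vehicle pools (adjusted p = 0.497 by limma). The odor call of Robo2 was lost with array medians set equal and without odor replicates 1, 2 or 3 in turn (adjusted p up to 0.14 by limma).

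Akap3 was picked for its difference, so only its relatives can be counted. Of 14 other measured A-kinase anchoring proteins of 16 listed, none passed in either direction in either sort, by limma. Of all probe sets, 11.3% were higher and 11.9% lower after odor, and 9.34% were higher and 11.8% lower after vehicle. At an unadjusted p under 0.05 there were 0 of these proteins in the odor pools and 3 in the vehicle pools. The share of all probe sets at that level is not given here, so nothing is read from these counts. Their medians were 0.11 and 0.18, beside 0.13 and 0.11 for all probe sets. With array medians set equal, which shifted all probe sets by 0.33 and 0.35, 8 and 11 of these proteins passed as higher. In that setting 13098 and 13003 of all 22206 probe sets did so. Akap6 (0.71 in the vehicle pools) also passed there with either replicate block, with an intensity trend, with a filter on dim probe sets and without vehicle replicate 4. Akap11 (0.53) passed there with the replicate number as a block and without odor replicate 4. Akap4, the partner of Akap3 in the sperm fibrous sheath, had group means of 4.42 to 4.68, under the negative control medians, and differed by 0.18 ± 0.17 and 0.17 ± 0.17 (adjusted p = 0.457 and 0.524 by limma).

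Of 9 genes for subunits and inhibitors of the kinase that these proteins anchor, 1 was higher and 1 lower in the odor pools, beside 11.3% and 11.9% of all probe sets, and 1 was higher and 0 lower in the vehicle pools, beside 9.34% and 11.8%. Prkar2a, a type II regulatory subunit, differed by 0.16 ± 0.15 and 0.03 ± 0.15 (adjusted p = 0.473 and 0.895 by limma). Prkar2b, the other type II subunit, was lower by -0.82 ± 0.15 in the odor pools (adjusted p = 0.00075 by limma), with means of 10.47 in GFP+ and 11.29 in GFP- cells, and differed by -0.25 ± 0.15 in the vehicle pools (adjusted p = 0.282 by limma). The gene higher after odor was Prkar1b, a type I subunit (0.54 ± 0.13, adjusted p = 0.00522 by limma), whose call was lost with receptor or negative control medians set equal and which differed by -0.16 ± 0.13 in the vehicle pools (adjusted p = 0.415 by limma). The gene higher after vehicle was Pkib, a kinase inhibitor (0.79 ± 0.16, adjusted p = 0.0019 by limma), and with the pool of mice as a block Pkib passed in the odor pools as well. The vehicle call of Pkib was lost with receptor or negative control medians set equal. Prkar1b and Pkib are named because they are the passing genes of so short a list.

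Of 12 genes of the sperm fibrous sheath and flagellum, 2 were higher in the odor pools and 1 in the vehicle pools, beside 11.3% and 9.34% of all probe sets. The medians were 0.24 and 0.27. Ropn1 and Ropn1l encode ropporins, which in sperm bind A-kinase anchoring proteins through a domain like that of the kinase's regulatory subunit. In the odor pools Ropn1l had 8.20 in GFP+ and 7.24 in GFP- cells and was higher by 0.96 ± 0.18 (adjusted p = 0.000836 by limma), and Ropn1 by 0.46 ± 0.14 (adjusted p = 0.0258 by limma). In the vehicle pools they differed by 0.50 ± 0.18 and 0.20 ± 0.14 (adjusted p = 0.0628 and 0.344 by limma), and with the pool of mice as a block Ropn1l passed there too. The call of Ropn1 was lost when receptor or negative control medians were set equal and without odor replicate 1, 3 or 4, and that of Ropn1l with negative control medians set equal (adjusted p = 0.0798 by limma). The gene that passed in the vehicle pools, Cfap65 (0.57 ± 0.19, adjusted p = 0.0466 by limma), lost its call in most alternatives.

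Of 18 other polypeptide N-acetylgalactosaminyltransferases, the relatives of Galnt15, 2 were higher and 4 lower in GFP+ than in GFP- cells after odor, and 4 were higher and 2 lower after vehicle, with medians of 0.09 and 0.10. Of all probe sets, 11.3% were higher and 11.9% lower after odor, and 9.34% were higher and 11.8% lower after vehicle. Galnt13, an enzyme of the nervous system, was lowest, with 4.63 in GFP+ and 8.17 in GFP- cells after odor and 4.35 and 8.34 after vehicle. It was lower by -3.54 ± 0.36 and -3.98 ± 0.36 (adjusted p = 9.66e-07 and 2.48e-07 by limma) and passed in each alternative. Its GFP+ level lay under the negative controls, which limits what these sizes show, and markers of immature neurons were also lower in GFP+ cells, whose part in it was not tested. Galnt16 was higher by 0.46 ± 0.12 and 0.60 ± 0.12 (adjusted p = 0.0131 and 0.0018 by limma) and Galnt17 by 0.73 ± 0.25 and 0.74 ± 0.25 (adjusted p = 0.042 and 0.0413 by limma), in odor and vehicle pools. All these calls were lost with receptor or negative control medians set equal. The odor call of Galnt16 was also lost without odor replicate 2 or 4. Both calls of Galnt17 were also lost with quantile normalization, its odor call without odor replicate 1, 2 or 3 or vehicle replicate 1 or 3, and its vehicle call without any 1 of the vehicle replicates or odor replicate 1 or 2. Galnt14 differed by 0.11 ± 0.11 and 0.26 ± 0.11 (adjusted p = 0.489 and 0.1 by limma).

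Of 12 measured enzymes that extend O-glycans, of 14 listed, 1 was higher and 4 lower in the odor pools, beside 11.3% and 11.9% of all probe sets. Among them 1 was higher and 3 lower in the vehicle pools, beside 9.34% and 11.8%. Gcnt1, which adds the branch of core 2 O-glycans, had 7.01 in GFP+ and 9.32 in GFP- cells after odor and 6.96 and 9.31 after vehicle, lower by -2.31 ± 0.22 and -2.35 ± 0.22 (adjusted p = 5.23e-07 and 4.56e-07 by limma). St3gal1, a sialyltransferase that caps core 1, was lower by -1.07 ± 0.32 and -1.25 ± 0.32 (adjusted p = 0.0238 and 0.00926 by limma). C1galt1, the core 1 synthase, was lower by -0.67 ± 0.15 and -0.53 ± 0.15 (adjusted p = 0.00336 and 0.017 by limma). The calls of C1galt1 were lost with array medians set equal, and its vehicle call also without vehicle replicate 1 or 4. The odor call of St3gal1 was lost with quantile normalization and without odor replicate 2, 3 or 4, and its vehicle call without vehicle replicate 2 or 4.

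**Figure D4:**
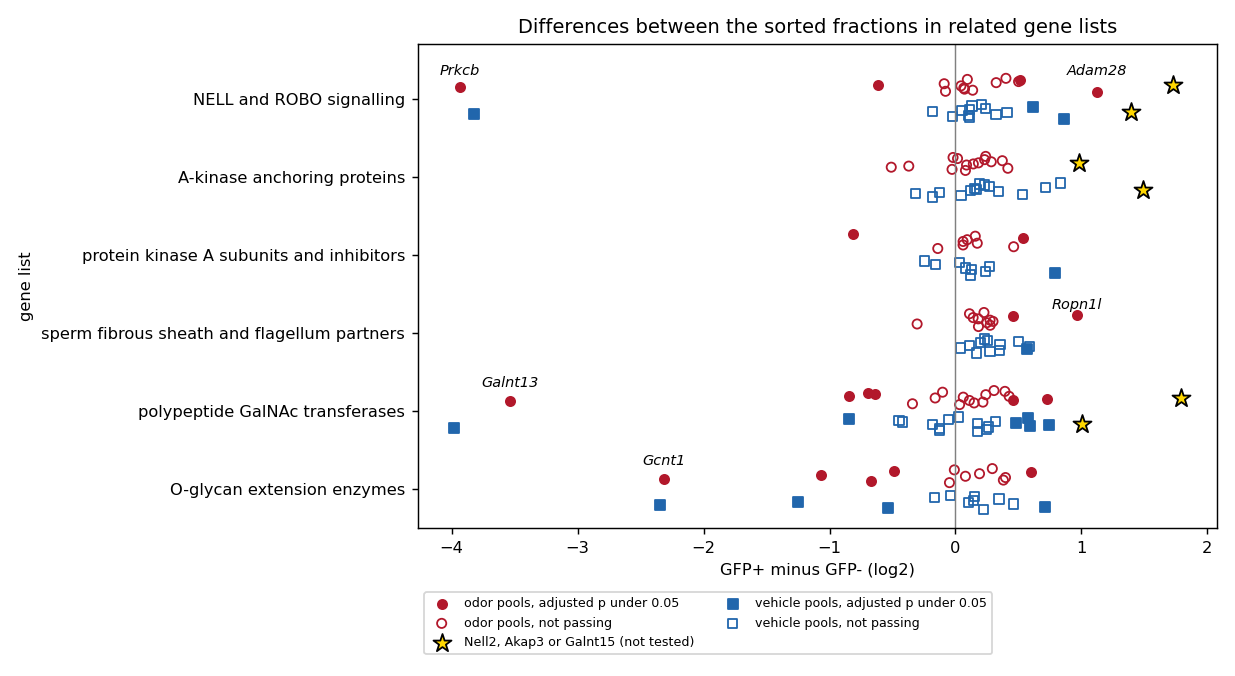
GFP+ minus GFP- difference on the log2 scale (x axis) of every measured gene of 6 lists (rows), with circles for odor pools above squares for vehicle pools, filled where the adjusted p was under 0.05, and stars for Nell2, Akap3 and Galnt15. Most relatives lie between -1 and 1, whereas Prkcb (-3.93 in the odor pools), Galnt13 (-3.54) and Gcnt1 (-2.31) lie far to the left.

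In the response to the odor 0 of the 78 measured genes of these 6 lists passed in GFP+ or in GFP- cells, by limma, beside 0.0766% and 0.0495% of all probe sets. With the pool of mice as a block, the sort comparisons gained Galnt3 after odor and Akap6, Odf2, Galnt6 and Gcnt3 after vehicle beside Pkib and Ropn1l, and lost no gene of these lists. In the odor response, at an unadjusted p under 0.05, there were 8 and 1 of them, or 10.3% and 1.28%, beside 7.15% and 2.61%.

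Genes with the most similar profile were found by the root mean square difference of log2 signals over the 16 arrays, each probe set centred on its own mean, among 18491 other probe sets with 1 symbol outside the odorant receptors. For Nell2 these were the protocadherin gene Pcdh7 (0.36), Ptprn, found in dense-core vesicles (0.37), the amino acid transporter gene Slc7a8 (0.38), Cntnap5b (0.38) and Cemip (0.40), where the median over all compared was 0.85. For Akap3 they were the orphan receptor gene Gpr135 (0.25), the vesicle protein genes Syt4 (0.28) and Syngr1 (0.30), the heparan sulfate sulfotransferase gene Hs3st1 (0.30) and the semaphorin gene Sema3e (0.31), with a median of 0.68. For Galnt15 they were Cidea (0.27), Slc7a8 (0.36), the trace amine-associated receptor Taar7e (0.36), which has close paralogs, Ptprn (0.40) and Clip4 (0.41), with a median of 0.80. Slc7a8 and Ptprn were near to both Nell2 and Galnt15. Cntnap5b (6.14), Cemip (6.20) and Gpr135 (6.81) had low means over the 16 arrays, where the median of the negative control medians was 6.17. Their low signal limits what their likeness shows.

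The sort dominates these likenesses, as all of the named neighbours were higher in GFP+ cells, by 0.91 to 1.79 in the odor pools and 0.85 to 1.58 in the vehicle pools. Among them Cidea came closest to the odor change of Galnt15 in GFP+ cells, with 0.49 against 0.80. Nell2 and Galnt15 differed from each other by 0.43 and ranked 10 and 12 on each other's list, and both had their lowest odor signal in replicate 4 in either fraction. Akap3 was farther away, at 0.55 from Nell2 and 0.48 from Galnt15, and ranked 75 and 39 on their lists. On the list of Akap3, Nell2 ranked 1348 and Galnt15 314. The GFP+ signal of Akap3 in odor replicate 4 (7.70) was no lower than in the other odor arrays. In GFP- cells, however, its signal in that replicate (6.09) was also the lowest of the odor arrays.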

How the data were processed

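The authors deposited log2 signals of Clariom S probe sets, per the values and the labels, for 16 arrays each started from 50 to 100 ng of RNA. Affymetrix Expression Console made them, per the submitters' processing notes; the sources used here give neither its version nor its algorithm. Of the tested probe sets, 19572 carry 1 gene symbol in the platform annotation and 2634 none. Using limma 3.58.1 (R 4.3.3), a model of 4 group means was fitted across the 16 arrays without a block or further scaling. Tests were two-sided, with Benjamini-Hochberg adjustment over 22206 probe sets and a threshold of 0.05; the fit was tested on simulated data. GFP+ and GFP- arrays of a pool come from the same mice, per the labels, and their deviations from the group means correlated with r from 0.0119 to 0.224. Precision is limited by how many arrays there are. The genes, lists and tests were chosen with earlier results of these data known. Named were the 3 genes, fixed partners, up to 3 highest and 3 lowest genes of a list passing in both sorts, and the 5 nearest profiles; further passing genes of short lists were named after their values were seen. Alternatives changed the scaling, blocks, variance trend, filter and arrays included.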

Additional observations from a re-analysis of the deposited data

Results flagged for a closer look

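With 4 values a group, 18 sets of values of the 3 genes were examined for a value far from the other 3, and 6 held one, where chance gives about 1 in 20. For Nell2 these were the GFP+ signal of odor replicate 4 (7.08), and the GFP+ minus GFP- differences of odor replicate 2 (2.02) and vehicle replicate 1 (2.15). For Akap3 it was the GFP+ signal of vehicle replicate 2 (7.06). For Galnt15 they were the GFP+ minus GFP- differences of odor replicate 3 (1.31) and vehicle replicate 2 (0.47). The sets are not independent, since a difference reuses the signals of its 2 arrays. Of the 6, those of vehicle replicate 2 came from the pool whose GFP+ array had the highest negative control median.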

How the results depend on the processing

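The GFP+ minus GFP- differences of the 3 genes kept their sign in all 17 settings, with ranges of 1.45 to 2.06 and 0.90 to 1.74 for Nell2, 0.70 to 1.30 and 1.00 to 1.84 for Akap3, and 1.51 to 2.12 and 0.52 to 1.36 for Galnt15 (odor pools, then vehicle pools). The genes were chosen on these differences. Blocks, the intensity trend, the filter and leaving out pools of the other stimulus cannot change such a mean difference. Only rescaling and leaving out arrays of the same stimulus could move it. The odor change of Galnt15 in GFP+ cells ran from 0.57 to 1.00, with adjusted p from 0.198 to 0.777 by limma. The direction of the smaller odor changes was not settled. In GFP+ cells Nell2 turned to 0.00246 with quantile normalization, 0.072 with receptor medians and 0.17 with negative control medians set equal, Akap3 to 0.024 with the last, and in GFP- cells Galnt15 turned to -0.049 with receptor medians set equal. With single replicates left out, Nell2 in GFP+ cells ran from -0.18 to 0.21, Akap3 there from -0.36 to 0.029, Galnt15 in GFP- cells from -0.11 to 0.21, and the mean of both fractions from -0.32 to 0.026 for Nell2 and from -0.032 to 0.16 for Akap3. Exact permutation of pools gave p = 0.0286, the smallest possible, for the gain of Galnt15 (0.78; 0.343 adjusted over 12 tests), but the gain holds the odor sort difference that chose the gene, so this p supports nothing. Without the GFP+ array of vehicle replicate 2 it was 0.55, and that of Akap3 was -0.23 without odor replicate 3.

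Array-wide scaling moved the counts. Equal array medians shifted the median sort difference by 0.33 and 0.35 and gave 15107 calls in the odor pools (13098 higher, 2009 lower), against 5167 (2518 higher, 2649 lower), and 15011 in the vehicle pools (13003 higher, 2008 lower), against 4691 (2074 higher, 2617 lower). Receptor medians gave 3279 in the odor pools (865 higher, 2414 lower) and negative control medians, which shifted the medians by -0.28 and -0.49, gave 3079 (342 higher, 2737 lower). In the vehicle pools 515 were higher and 3237 lower with receptor medians, 279 and 4206 with negative control medians, set equal after the data were seen, and 3665 and 2501 with quantile normalization. Odor calls in GFP- cells, 11, were 17 with receptor and 6 with negative control medians equal, and those of the gain, 14, were 22 with receptor medians. Without single replicates the calls were 3340 to 5946 for the odor sort (lowest without odor replicate 2), 7 to 15 for odor in GFP+ cells (17 with all, lowest without vehicle replicate 4) and 7 to 15 in GFP- cells. The cause was not tested. With the pool of mice as a replicate block, Galnt15 kept 0.80 in GFP+ cells (adjusted p = 0.477 by limma), and with the replicate number as a block 0.80 (adjusted p = 0.287). Arrays that shared only a number correlated with r from 0.0311 to 0.29. Neither block changed a call of the 3 genes. Signal near the negative controls limits all 3 genes.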
